A study of Homo sapiens with 31 samples.

Results

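Alpha-ketoglutarate (2-oxoglutarate) dependent dioxygenases use oxygen, iron and 2-oxoglutarate to hydroxylate or demethylate proteins, DNA, RNA and small molecules, and release succinate. The transcripts of 41 of them were followed, chosen by gene symbol. They comprised the oxygen sensors EGLN1, EGLN2, EGLN3 and HIF1AN, 3 TET genes, 14 JmjC histone demethylases, 8 ALKBH genes, 6 collagen and membrane hydroxylases and 6 other hydroxylases. All 41 had a row among the 74834 rows of the expression table and were among the 16259 rows tested, which had a mean of at least 10 normalized reads. Of their rows, 35 name 1 gene. KDM2B, KDM5C and P4HA2 share a row with small RNAs, and EGLN2, ALKBH3 and OGFOD2 share one with other genes, so reads of these last 3 rows cannot be given to the enzyme alone.

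Poly(A) RNA was sequenced from H460 cells, an established line of human non-small cell lung cancer, after 6 h of treatment. There were 31 libraries in 8 groups of 4 (Nutlin-3: 3), and each sample combined cells of 2 wells. B87 was the complex I inhibitor BAY87-2243 at 1 µM. DMKG was dimethyl α-ketoglutarate at 5 mM, an ester that crosses membranes and is cleaved to α-ketoglutarate inside cells. B87 + DMKG joined them at the same doses. Nutlin-3 (30 µM) and Rita (50 µM) are small molecules used to free p53 from MDM2. B87 + DMKG + Nutlin-3 and B87 + DMKG + Rita were the triple treatments. Control cells, the baseline for all of these, were untreated, and the labels name no vehicle. Whether the samples of a group came from separate cultures is not stated, so the p-values reflect how much these samples varied, in part perhaps for technical reasons.

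EGLN1 (PHD2), EGLN2 (PHD1) and EGLN3 (PHD3) hydroxylate prolines of the hypoxia-inducible factor (HIF) α subunits, which marks them for the VHL ubiquitin ligase. HIF1AN (FIH) hydroxylates an asparagine that blocks the binding of coactivators. When these reactions slow, HIF accumulates and switches on genes that include several dioxygenases, among them EGLN1, EGLN3, P4HA1, P4HA2, PLOD1, PLOD2, KDM3A and KDM4B. These 8 are called the HIF-inducible members here, from the literature. The list was chosen with earlier results of these data known, so counts within it are a description and not a test. TET enzymes oxidize 5-methylcytosine in DNA, JmjC demethylases remove methyl groups from histone lysines, ALKBH enzymes act on alkylated nucleic acids and proteins, and P4HA and PLOD enzymes hydroxylate prolines and lysines of collagen. The values below are mRNA levels and say nothing of enzyme activity.

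Depth was 33.4 M to 82.5 M whole reads per library (median 63.1 M). The keratins KRT8, KRT18 and KRT19, markers of epithelial cells, averaged 53633 to 155378 normalized reads by group, and EPCAM 36.1 to 68.9, whereas the epithelial marker CDH1 stayed at 0.39 to 4.82. Of the leukocyte markers reported here, PTPRC, CD3E and LYZ stayed at most at 5.08, but CD14 averaged 67.0 to 239. Of 4 endothelial markers, PECAM1, CDH5 and VWF stayed at most at 6.15, and KDR reached 37.6. Of 5 fibroblast markers, COL1A2 (at most 2.27) and DCN (at most 17.1) were low, whereas COL1A1 averaged 473 to 908, PDGFRB 135 to 261 and LUM 115 to 227. These markers are named after their values were seen. Some moved with treatment: in B87 + DMKG against Control, limma called CD14 (-1.69, adjusted p = 5.7e-06), COL1A1 (-0.44, adjusted p = 0.0143) and LUM (-0.44, adjusted p = 0.0311) lower, and KDR (1.95, adjusted p = 0.00522) and PDGFRB (0.51, adjusted p = 4.3e-04) higher. The summed group means in B87 + DMKG, against Control, were 41.4 and 13.1 for endothelial and 858 and 981 for fibroblast markers. Over all groups these sums ran from 2.68 to 41.4 and from 858 to 1361. Of 5 epithelial markers tested against Control, 0 were higher and 2 lower in B87 + DMKG (median -0.28). In B87 + DMKG + Nutlin-3 4 were higher and 0 lower, and in B87 + DMKG + Rita 5 and 0. Over all rows 30.8% were lower in B87 + DMKG, and 28.3% and 29.4% higher in these triple treatments. The sum of the epithelial markers was 261033 in Control and 249818 in B87 + DMKG. It ran from 229719 in Nutlin-3 to 385154 in B87 + DMKG + Nutlin-3, with 364118 in B87 + DMKG + Rita. The part of these marker changes in the results below was not tested. Among the DMKG libraries, 1 and 2 stood apart from 3 and 4: correlations of log2 values were 0.987 and 0.990 within these pairs and 0.973 to 0.979 between them. Of the 41 members, 29 had the DMKG pairs apart without overlap. The share over all rows was not taken, so this count does not tell the members from other rows. Both values of every member against Control are in the plot of DMKG by pair of libraries. Against Control, the DMKG calls of KDM4A, P4HTM and PLOD3 were lost with either pair alone, and those of KDM5C, KDM7A and OGFOD3 with libraries 1 and 2 alone. Of the calls of B87 + DMKG against DMKG, KDM7A and ALKBH3 were lost with libraries 1 and 2 alone and KDM5B with 3 and 4 alone. Of those beyond the sum of B87 and DMKG, KDM5A and KDM7A were lost with libraries 1 and 2 alone and PHF8 with 3 and 4 alone. In bulk RNA, fewer cells of a kind and less RNA per cell cannot be told apart. When all libraries were given an equal total, the median log2 fold change over all rows shifted by -0.11 in DMKG, -0.13 in Nutlin-3, -0.17 in Rita, -0.16 in B87 + DMKG + Nutlin-3 and -0.25 in B87 + DMKG + Rita, each against Control. Against B87 + DMKG it shifted by -0.14 in B87 + DMKG + Nutlin-3 and -0.24 in B87 + DMKG + Rita. This alternative is called equal totals below. Shares given for all rows come from the authors' scaling throughout. They are therefore not a matched background for counts from equal totals or quantile normalization. Fold changes below are relative to the authors' scaling.

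B87 alone changed no member past the threshold, whereas each other treatment changed 16 or more of the 41, in some at a share near that of all rows. A member was called when limma gave an adjusted p under 0.05 over all rows tested, and the log2 fold change (± SE) is the difference of mean log2(normalized reads + 1). In B87 against Control, limma called 0 of 41 members (all rows: 0.0431%, with 0.0308% higher and 0.0123% lower). At an unadjusted p under 0.05, limma had 1 member, KDM3A (0.24), and the share of all rows at that limit is not given here. After adjustment, edgeR and DESeq2 also called 0. In DMKG against Control 24 were called, 15 higher and 9 lower (all rows: 41.4%, with 19.6% higher and 21.8% lower). With equal totals the split was 12 higher and 15 lower.

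In B87 + DMKG against Control 23 members were called, 5 higher and 18 lower (all rows: 61%, with 30.2% higher and 30.8% lower). Quantile normalization gave 10 higher and 17 lower. The median member changed by -0.25 in B87 + DMKG, beside 0.005 for all rows tested. Rita called 31 members, 12 higher and 19 lower (all rows: 52.1%, with 25.8% higher and 26.3% lower), and Nutlin-3 called 16, 9 higher and 7 lower (all rows: 39.1%, with 18.5% higher and 20.7% lower). With equal totals these splits were 7 higher and 20 lower in Rita, and 6 higher and 16 lower in Nutlin-3. B87 + DMKG + Nutlin-3 called 24 members, 8 higher and 16 lower (all rows: 58%, with 28.3% higher and 29.7% lower), with 6 and 21 with equal totals and 13 and 13 after quantile normalization. B87 + DMKG + Rita called 35, 14 higher and 21 lower (all rows: 60.1%, with 29.4% higher and 30.7% lower), with 8 and 24 with equal totals. Of the members, 58.5% were called in DMKG (all rows: 41.4%), 56.1% in B87 + DMKG (61%) and 75.6% in Rita (52.1%). The shares were 39.0% in Nutlin-3 (39.1%), 58.5% in B87 + DMKG + Nutlin-3 (58%) and 85.4% in B87 + DMKG + Rita (60.1%).

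**Figure D1:**
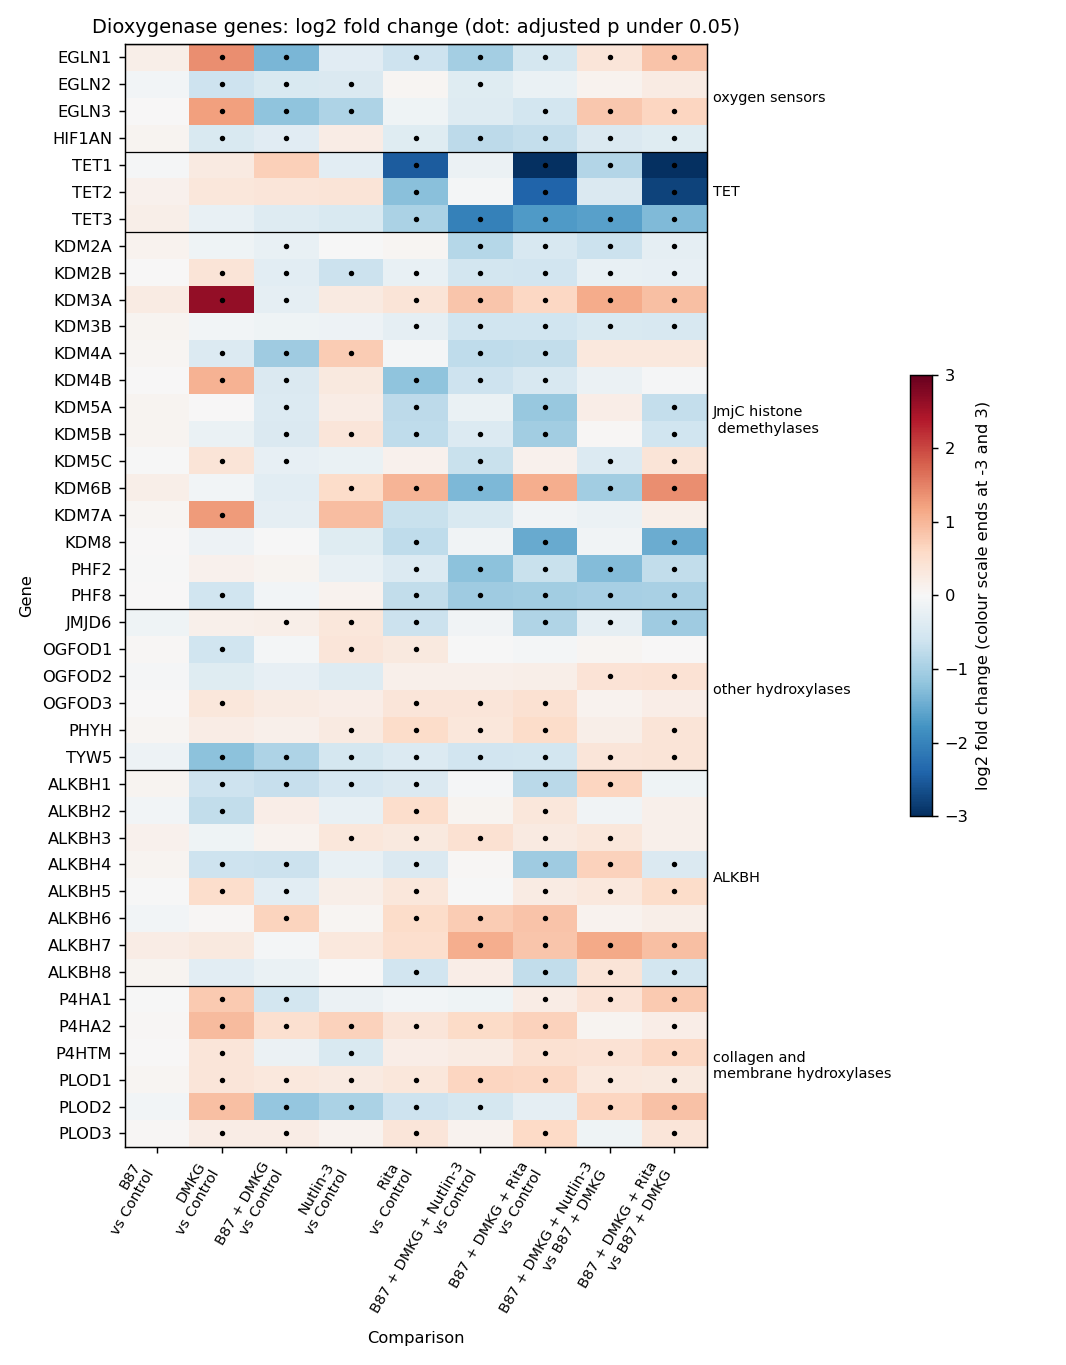
Log2 fold change (colour, scale ending at -3 and 3) of the 41 dioxygenase genes (rows, grouped by class) in 9 comparisons (columns); a dot marks an adjusted p under 0.05 in limma. The B87 column holds no dot, the darkest red is KDM3A in DMKG (2.63), and TET1 runs past the scale with -3.65 in B87 + DMKG + Rita against Control and -4.35 against B87 + DMKG.

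The oxygen sensors EGLN1 and EGLN3 moved in opposite directions with DMKG and with B87 + DMKG. EGLN1 (chr1:231499497-231560790, hg19), the main HIF prolyl hydroxylase, had 3573, 3255, 3157 and 3429.9 normalized reads in DMKG and 629, 424, 488 and 440.2 in B87 + DMKG, against 1319, 1154, 1256 and 1390.0 in Control. All 4 DMKG libraries lay above, and all 4 B87 + DMKG libraries below, every Control library. EGLN1 rose in DMKG, with a log2 fold change of 1.39 ± 0.13 (adjusted p = 2.5e-10, limma), and fell in B87 + DMKG, with -1.38 ± 0.13 (adjusted p = 1.0e-10, limma). B87 alone left it at 1377, 1251, 1316 and 1875 (0.17 ± 0.13, adjusted p = 1, limma), with library 4 the highest and the group overlapping Control.

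EGLN3 (chr14:34393421-34420284, hg19), the HIF prolyl hydroxylase best known as itself HIF-induced, had 1162, 1160.4, 781 and 741 in DMKG and 115, 185, 180.0 and 235 in B87 + DMKG, against 392, 344, 462 and 409 in Control. DMKG libraries 1 and 2 were higher than 3 and 4, and no library of either treatment reached the Control range. EGLN3 rose by 1.23 ± 0.17 in DMKG (adjusted p = 5.2e-07, limma), with 1.54 from libraries 1 and 2 and 0.93 from 3 and 4. In B87 + DMKG its log2 fold change was -1.20 ± 0.17 (adjusted p = 3.3e-07, limma).

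The p53 activators also touched these 2 sensors. EGLN1 fell in Rita (755, 735, 779 and 1065, -0.63 ± 0.13, adjusted p = 9.4e-05, limma), where library 4 stood above the other 3 and below Control. EGLN3 fell in Nutlin-3, with 241, 234 and 167 normalized reads (-0.92 ± 0.18, adjusted p = 1.5e-04, limma), all below Control. In Rita, EGLN3 overlapped Control (426, 352, 405 and 297, -0.12 ± 0.17, adjusted p = 0.558, limma). EGLN1 in Nutlin-3 was -0.33 ± 0.14 with adjusted p = 0.053 in limma, and its libraries (879, 1056 and 1132) lay below Control; edgeR and DESeq2 (adjusted p = 0.0492 and 0.0453) and equal totals (-0.46, adjusted p = 0.00986, limma) called it lower.

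The triple treatments left EGLN1 between B87 + DMKG and Control. It had 598, 659.6, 561 and 692 in B87 + DMKG + Nutlin-3 and 874, 919, 889.7 and 888 in B87 + DMKG + Rita, both below Control (-1.03 ± 0.13 and -0.52 ± 0.13, adjusted p = 3.0e-08 and 7.2e-04, limma; -0.33 with Rita after quantile normalization). Against B87 + DMKG, EGLN1 was higher with Rita (0.87 ± 0.13, adjusted p = 4.8e-07, limma) and with Nutlin-3 (0.35 ± 0.13, adjusted p = 0.016, limma; 0.54 after quantile normalization). With Nutlin-3 the libraries overlapped B87 + DMKG, and that call was lost with equal totals (0.21, adjusted p = 0.171), in a fit of only the groups compared (adjusted p = 0.0534) and without B87 + DMKG library 2 or 4 or triple library 4 (adjusted p = 0.0522 to 0.0678). EGLN3 held 324, 320.4, 301 and 284 in B87 + DMKG + Nutlin-3 and 276, 273, 269 and 274 in B87 + DMKG + Rita, all above the B87 + DMKG libraries. Those differences were 0.82 ± 0.17 and 0.65 ± 0.17 (adjusted p = 1.0e-04 and 0.00104, limma), the one with Rita being 0.41 with equal totals and 1.00 after quantile normalization.

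EGLN2 and HIF1AN, which hypoxia does not typically induce, fell in DMKG and in B87 + DMKG alike. HIF1AN (chr10:102295616-102313680, hg19) had 739, 646, 587 and 557 in DMKG and 687, 683, 649 and 702 in B87 + DMKG, against 901, 847, 863 and 852 in Control. Neither treatment overlapped Control (-0.46 ± 0.09 and -0.35 ± 0.09, adjusted p = 9.8e-05 and 0.00117, limma). Set against B87 + DMKG, it was lower in B87 + DMKG + Nutlin-3 (578, 518, 428 and 508, -0.43 ± 0.09) and in B87 + DMKG + Rita (567, 532, 543 and 462, -0.37 ± 0.09), with adjusted p = 1.4e-04 and 5.0e-04 in limma. After quantile normalization these were -0.27 and -0.23, and with equal totals the one with Rita was -0.61. Nutlin-3 alone left HIF1AN at 967, 1028 and 1034, above every Control library but not called (0.22 ± 0.10, adjusted p = 0.0667, limma); quantile normalization (0.29, adjusted p = 0.0177) and DESeq2 (adjusted p = 0.0362) called it higher. The row of EGLN2, which also names other genes, was at -0.61 ± 0.12 in DMKG and -0.46 ± 0.12 in B87 + DMKG (adjusted p = 1.9e-04 and 0.00204, limma). Its Nutlin-3 libraries were split (2770.0, 1766 and 1678), and its call there (-0.44 ± 0.13, adjusted p = 0.00971, limma) was lost without Nutlin-3 library 2 (adjusted p = 0.0805) or 3 (adjusted p = 0.115) and was -0.67 without library 1.

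All 8 HIF-inducible members rose in DMKG, and 6 of the 8 were below Control once B87 was added, at a background of 19.6% higher and 30.8% lower over all rows. The 8 of 8 also held with equal totals, after quantile normalization and with either pair of DMKG libraries. After quantile normalization 5 of the 8 were below Control in B87 + DMKG, KDM3A no longer being called. Of the other 33 members, 7 rose and 9 fell in DMKG. KDM3A (chr2:86668271-86719838, hg19), a demethylase of histone H3 lysine 9, had 8825, 8841, 11671 and 12281 in DMKG and 1509, 1668, 1149 and 1224 in B87 + DMKG, against 1627, 1622, 1689 and 1705 in Control. Libraries 3 and 4 of DMKG were higher than 1 and 2, and each of the 4 was far above Control. With B87 alone KDM3A had 1886, 1970, 1979 and 1988, above every Control library but not called (0.24). The log2 fold change of KDM3A in DMKG was 2.63 ± 0.11, a 6.19-fold difference (adjusted p = 3.7e-18, limma), and the highest of the 41.

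With B87 in DMKG-treated cells KDM3A dropped by 2.90 on the log2 scale (± 0.11, adjusted p = 1.7e-19, limma). Against Control, B87 + DMKG stood at -0.28 ± 0.11 (adjusted p = 0.0281, limma), with library 2 inside the Control range. That call was lost after quantile normalization (-0.16, adjusted p = 0.209), with no filter, in a fit of only the 2 groups, and without Control library 3 or 4 or B87 + DMKG library 3 or 4 (adjusted p = 0.0512 to 0.141). KDM3A was higher in both triple treatments, at 2762, 3195, 2635 and 3302 with Nutlin-3 and 2734, 2322, 2716 and 2537 with Rita (0.83 ± 0.11 and 0.63 ± 0.11 against Control, adjusted p = 9.2e-08 and 9.0e-06, limma; 0.37 with Rita with equal totals). No library of either overlapped Control. Rita alone gave 0.39 ± 0.11 (adjusted p = 0.00345, limma), which was 0.21 and not called with equal totals (adjusted p = 0.113).

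P4HA1 (chr10:74766982-74856732, hg19), a catalytic subunit of collagen prolyl 4-hydroxylase, had 12012, 11303, 10548 and 9785 in DMKG and 5013, 4245, 4173 and 3814 in B87 + DMKG, against 6435, 6092, 6365 and 6375 in Control. The 3 groups did not overlap. It rose in DMKG (0.79 ± 0.07, adjusted p = 3.1e-10, limma) and fell in B87 + DMKG (-0.56 ± 0.07, adjusted p = 8.2e-08, limma). In B87 + DMKG + Rita, P4HA1 was 7287, 7623, 7141 and 7364, above Control by 0.22 ± 0.07 (adjusted p = 0.00908, limma), but it turned to -0.04 with equal totals and was 0.08 and not called after quantile normalization. Against B87 + DMKG the same libraries were higher by 0.78 ± 0.07 (adjusted p = 8.4e-11, limma).

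PLOD2 (chr3:145787230-145879282, hg19), the lysyl hydroxylase of collagen telopeptides, followed the same order, with 1780.3, 1714, 1511 and 1470.2 in DMKG and 388, 333, 400.1 and 438 in B87 + DMKG, against 946, 757, 894 and 879 in Control. Its log2 fold changes were 0.90 ± 0.13 in DMKG and -1.16 ± 0.13 in B87 + DMKG (adjusted p = 1.3e-06 and 5.2e-09, limma). PLOD2 was also below Control in Nutlin-3 (529, 369.6 and 469, -0.94 ± 0.14) and Rita (629.8, 574, 668 and 410.2, -0.63 ± 0.13), with adjusted p = 2.8e-06 and 1.4e-04 in limma. No library of these 3 treatments reached the Control range. The triple treatments stood at 608 ± 84.6 with Nutlin-3 and 716 ± 35.4 with Rita (SD, n = 4 each), above B87 + DMKG by 0.64 ± 0.13 and 0.88 ± 0.13 (adjusted p = 9.3e-05 and 5.1e-07, limma).

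KDM4B (chr19:4969124-5153606, hg19), a demethylase of histone H3 lysine 9, was the HIF-inducible member furthest below Control in Rita. It had 1207, 1249, 1150.5 and 1237 in DMKG and 256, 288, 233 and 242 in Rita, against 653, 589, 500.1 and 627 in Control. Its log2 fold changes were 1.04 ± 0.13 in DMKG and -1.21 ± 0.13 in Rita (adjusted p = 1.4e-07 and 4.4e-09, limma). Neither group overlapped Control. B87 + DMKG had 337, 375, 486 and 586, a log2 difference of -1.47 ± 0.13 from DMKG (adjusted p = 5.7e-11, limma), and its library 4 lay within the Control range.

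P4HA2 and PLOD1 were the exceptions to the reversal, since both were above Control with and without B87. In B87 + DMKG against DMKG, P4HA2 still fell (-0.46, adjusted p = 2.8e-07, limma). P4HA2, the alternative catalytic subunit of collagen prolyl 4-hydroxylase, had 2556, 2448, 2534 and 2531 in DMKG and 1901, 1719, 1730.3 and 2003 in B87 + DMKG, against 1245, 1379.9, 1299.7 and 1297 in Control. It rose by 0.95 ± 0.06 and 0.49 ± 0.06 (adjusted p = 3.2e-13 and 7.5e-08, limma), with no overlap, and it was also called higher in both p53 activators and both triple treatments, at 0.35 to 0.70. With equal totals its values were 0.18 in Rita and 0.43 in B87 + DMKG + Rita. PLOD1, a lysyl hydroxylase of the collagen helix, stood at 13255 ± 1668 in B87 + DMKG and 10584 ± 171 in Control (SD, n = 4 each), a difference of 0.32 ± 0.07 (adjusted p = 1.3e-04, limma). It was the one HIF-inducible member that did not pass the test in B87 + DMKG against DMKG, at -0.04 (adjusted p = 0.595, limma).

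**Figure D2:**
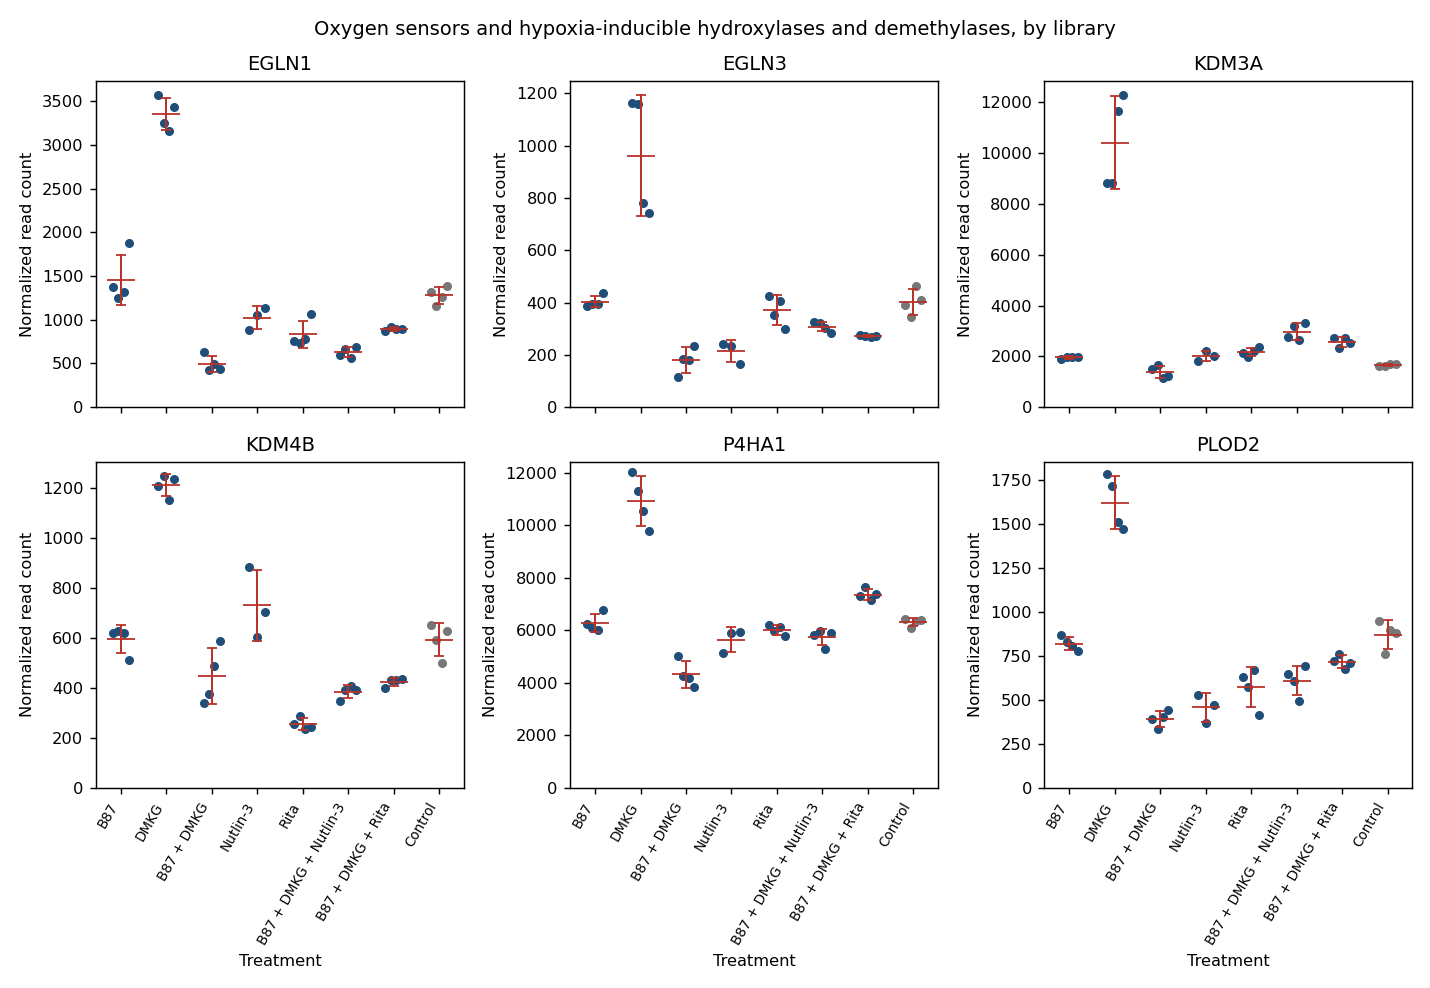
Normalized reads (vertical axes, from 0) of 6 members in every library (points) of the 8 treatments (horizontal axes), with the mean and SD of each group in red and Control in grey at the right. In each panel the 4 DMKG libraries lie above Control, and EGLN1, EGLN3, P4HA1 and PLOD2 lie below Control in B87 + DMKG.

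**Figure D3:**
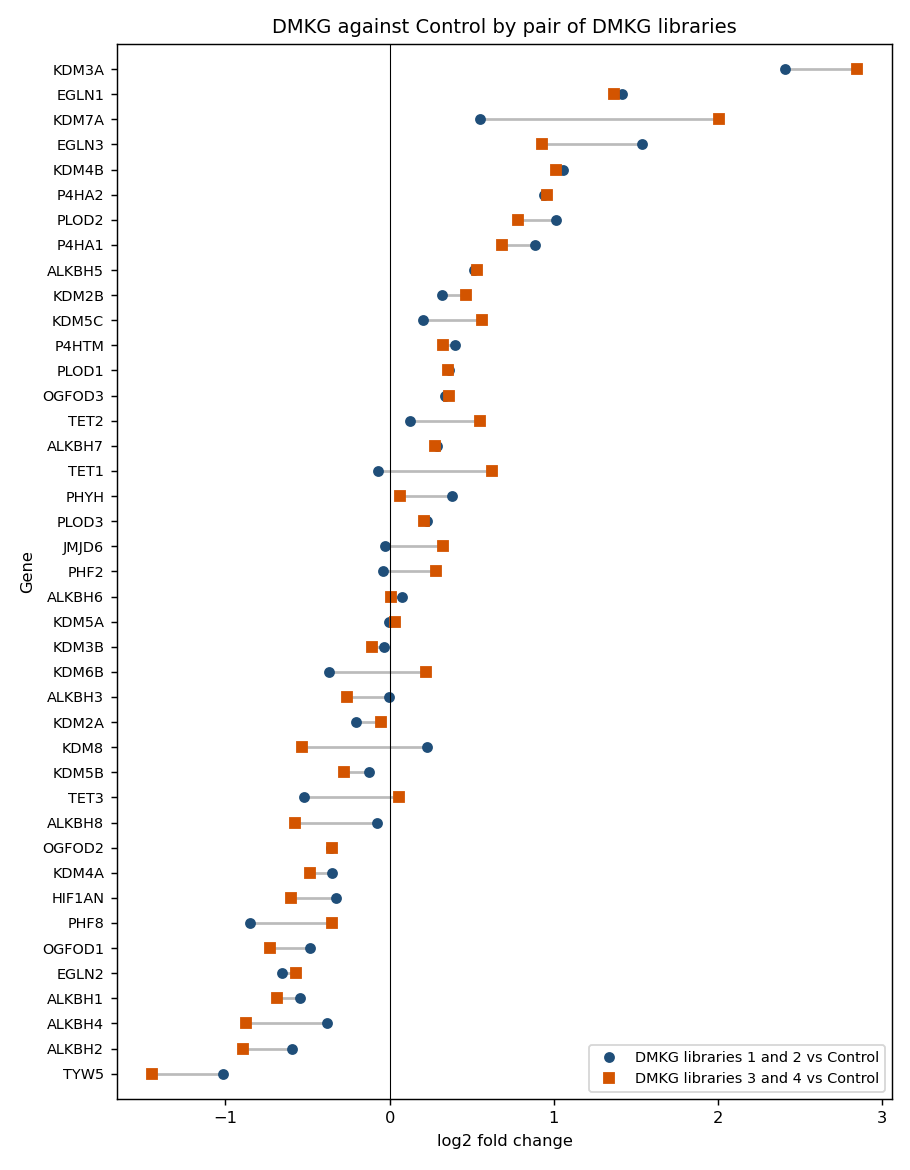
Log2 fold change (horizontal axis) of each of the 41 members (vertical axis, ordered by the value from all 4 DMKG libraries) against Control, from DMKG libraries 1 and 2 (circles) and 3 and 4 (squares). With either pair 18 members were called in the same direction, 10 higher and 8 lower, and KDM7A shows a wide gap (0.55 and 2.01). The share of all rows called with either pair was not taken, so the 18 do not tell the members from other rows.

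The fall with B87 in DMKG-treated cells was tested as such. The combination was compared with the sum of the separate effects of B87 and DMKG, a contrast of 4 groups in which Control enters as well. It was called for 18 members, 4 above and 14 below the sum (all rows: 48.8%, with 24.6% higher and 24.1% lower), or 6 and 12 with equal totals. The members furthest below the sum were KDM3A at -3.14 ± 0.15, EGLN1 at -2.94 ± 0.18, EGLN3 at -2.44 ± 0.24 and PLOD2 at -1.97 ± 0.18 (adjusted p = 5.1e-16, 6.2e-14, 1.2e-09 and 4.6e-10, limma). Of the 8 HIF-inducible members 7 were below the sum, PLOD1 excepted, as were 7 of the other 33 members. B87 + DMKG against DMKG called 20 members, 5 higher and 15 lower (all rows: 60.1%, with 30.8% higher and 29.3% lower), and against B87 27, 6 higher and 21 lower (all rows: 62.6%, with 31.1% higher and 31.5% lower).

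The promoters of these genes are shown because HIF binds a short core, ACGTG or GCGTG, in DNA. RefSeq promoters (GRCh38.p14, 250 bases before to 50 after the start, 300 in all) were matched for 40 members; JMJD6 had no entry. Printed 5′ to 3′ on the gene's strand, the capitals mark every ACGTG or GCGTG on either strand (CACGT or CACGC where it lies on the other strand, and overlapping matches merge). The first 4 are HIF-inducible members that rose in DMKG and fell with B87 added; EGLN3 did the same and has no core in this window.
EGLN1, chr1:231422238-231422537, minus strand: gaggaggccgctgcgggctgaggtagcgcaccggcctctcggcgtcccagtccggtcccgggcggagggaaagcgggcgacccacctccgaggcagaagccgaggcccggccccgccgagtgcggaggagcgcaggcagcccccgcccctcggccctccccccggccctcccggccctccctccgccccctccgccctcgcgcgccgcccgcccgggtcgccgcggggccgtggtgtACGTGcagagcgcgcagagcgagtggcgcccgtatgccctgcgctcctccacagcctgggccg
KDM3A, chr2:86441121-86441420, plus strand: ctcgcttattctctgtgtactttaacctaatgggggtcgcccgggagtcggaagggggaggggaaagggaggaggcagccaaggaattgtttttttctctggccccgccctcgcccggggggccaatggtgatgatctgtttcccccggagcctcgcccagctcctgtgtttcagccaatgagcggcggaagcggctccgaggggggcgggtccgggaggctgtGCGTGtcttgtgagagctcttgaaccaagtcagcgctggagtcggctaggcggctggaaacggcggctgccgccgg
P4HA1, chr10:73096817-73097116, minus strand: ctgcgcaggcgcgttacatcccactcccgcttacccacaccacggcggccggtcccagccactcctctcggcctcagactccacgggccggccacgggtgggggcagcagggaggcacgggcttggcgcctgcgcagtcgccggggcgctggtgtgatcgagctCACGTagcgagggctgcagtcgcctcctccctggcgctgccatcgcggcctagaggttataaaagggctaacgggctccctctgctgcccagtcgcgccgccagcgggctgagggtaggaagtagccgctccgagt
PLOD2, chr3:146161135-146161434, minus strand: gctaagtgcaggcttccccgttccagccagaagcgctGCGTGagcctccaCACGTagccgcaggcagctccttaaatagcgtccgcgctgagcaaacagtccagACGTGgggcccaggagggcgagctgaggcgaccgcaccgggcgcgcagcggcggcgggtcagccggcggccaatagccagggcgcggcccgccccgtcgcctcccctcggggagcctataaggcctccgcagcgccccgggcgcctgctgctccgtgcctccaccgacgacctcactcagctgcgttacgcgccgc
EGLN3, chr14:33951025-33951324, minus strand: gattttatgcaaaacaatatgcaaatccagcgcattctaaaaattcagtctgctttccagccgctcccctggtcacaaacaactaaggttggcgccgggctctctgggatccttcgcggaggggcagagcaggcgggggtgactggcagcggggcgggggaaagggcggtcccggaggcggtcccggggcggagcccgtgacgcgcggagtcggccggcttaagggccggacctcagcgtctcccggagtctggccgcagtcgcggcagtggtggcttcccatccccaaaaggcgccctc

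The single core of EGLN1 begins 13 bases before the start, that of KDM3A 26 before and that of P4HA1 86 before, and PLOD2 holds 3. At least 1 core stood in 28 of the 40 windows (70%) and in 48.4% of the 35116 promoters of the table. It stood in 10 of 15 promoters of members higher in DMKG (66.7%), in 6 of 9 of those lower (66.7%) and in 12 of 16 of those not called (75%). Among the HIF-inducible members it stood in 6 of 8, with none in the windows of EGLN3 and P4HA2. These counts describe the letters only.

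All 3 TET genes fell in Rita and in B87 + DMKG + Rita, also with equal totals and after quantile normalization. TET1 (chr10:70320117-70454238, hg19) had 14.9, 31.2, 28.8 and 3.11 in B87 + DMKG + Rita and 38.4, 23.4, 43.2 and 34.5 in Rita, against 246, 169, 191 and 189 in Control. No library of either treatment reached the Control range, and library 4 of the triple treatment was the lowest. The log2 fold changes were -3.65 ± 0.37 and -2.50 ± 0.37 (adjusted p = 7.5e-10 and 1.3e-06, limma). TET2 (chr4:106067030-106200973, hg19), the family member most often mutated in blood cancers, had 122, 119.9, 164 and 114 in B87 + DMKG + Rita and 320.1, 244, 248 and 353 in Rita, against 783, 533, 678 and 787 in Control. These groups did not overlap Control either (-2.41 ± 0.22 and -1.25 ± 0.22, adjusted p = 9.3e-11 and 1.9e-05, limma).

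TET3 (chr2:74213531-74335300, hg19), known for oxidizing the paternal genome in the mouse zygote, fell in both triple treatments. It had 37.3, 72.3, 47.1 and 50.6 in B87 + DMKG + Nutlin-3 and 54.3, 53.8, 82.8 and 65.3 in B87 + DMKG + Rita, against 255, 163, 214 and 206 in Control. Every triple library was below every Control library (-2.02 ± 0.19 and -1.70 ± 0.19, adjusted p = 2.4e-10 and 8.6e-09, limma). In Rita alone TET3 was 135, 99.8, 88 and 108 (-0.95 ± 0.19, adjusted p = 1.3e-04, limma).

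Without Rita, TET1 and TET2 were not called against Control. TET1 had 439, 261, 357 and 262 in B87 + DMKG, where every library was above the highest Control library, with 0.71 ± 0.37 and adjusted p = 0.0967 in limma. edgeR (adjusted p = 0.0181), DESeq2 (adjusted p = 0.00405), a pseudocount of 5 (adjusted p = 0.041) and a fit of only the 2 groups (adjusted p = 0.00722) called it higher. TET2 spread widely in Nutlin-3 (583, 1107 and 1126) and in B87 + DMKG + Nutlin-3 (635, 858, 408 and 830.3), and neither differed from Control past the threshold (0.39 ± 0.24 and -0.07 ± 0.22, adjusted p = 0.203 and 0.813, limma). Nutlin-3 without library 1 gave 0.70 (adjusted p = 0.0215). In DMKG, TET1, TET2 and TET3 were at 0.28, 0.34 and -0.23, with none called, and for each of them libraries 3 and 4 were higher than 1 and 2.

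Measured from its own starting level, the fall of TET1 and TET2 with Rita was larger in B87 + DMKG than without it. The difference between these Rita effects was -1.86 ± 0.52 for TET1 and -1.51 ± 0.31 for TET2 (adjusted p = 0.00397 and 1.9e-04, limma). Without B87 + DMKG + Rita library 4, the lowest, the TET1 difference was -1.21 (adjusted p = 0.00425). Part of the TET1 difference was the higher starting level in B87 + DMKG (0.707 against Control), which limma did not call. The end levels of TET1 overlapped, at 3.11 to 31.2 in B87 + DMKG + Rita and 23.4 to 43.2 in Rita. Those of TET2 did not, at 114 to 164 and 244 to 353. For TET3 the difference between the Rita effects was -0.36 ± 0.27 and did not pass (adjusted p = 0.282, limma). The Nutlin-3 effect on TET3 was lower in B87 + DMKG, with -1.19 ± 0.29 (adjusted p = 7.7e-04, limma).

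Among the JmjC demethylases, KDM6B (chr17:7743228-7758118, hg19), which removes methyl groups from histone H3 lysine 27, separated the 2 triple treatments. It had 152, 176, 182 and 162 in B87 + DMKG + Nutlin-3 and 987, 802, 912 and 943 in B87 + DMKG + Rita, against 502, 435, 347 and 447 in Control. The first lay wholly below and the second wholly above Control (-1.35 ± 0.15 and 1.08 ± 0.15, adjusted p = 5.8e-09 and 3.7e-07, limma). Alone, both drugs raised it, to 844, 861, 850.4 and 907 in Rita (1.01 ± 0.15, adjusted p = 1.7e-06, limma) and 756, 631 and 522 in Nutlin-3 (0.55 ± 0.16, adjusted p = 0.00774, limma). The Nutlin-3 call was lost without its library 1 (0.42, adjusted p = 0.0629). The Nutlin-3 effect with minus without B87 + DMKG was -1.59 ± 0.22 (adjusted p = 6.2e-07, limma), and the same difference for Rita was 0.38 ± 0.21, which did not pass (adjusted p = 0.139, limma).

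**Figure D4:**
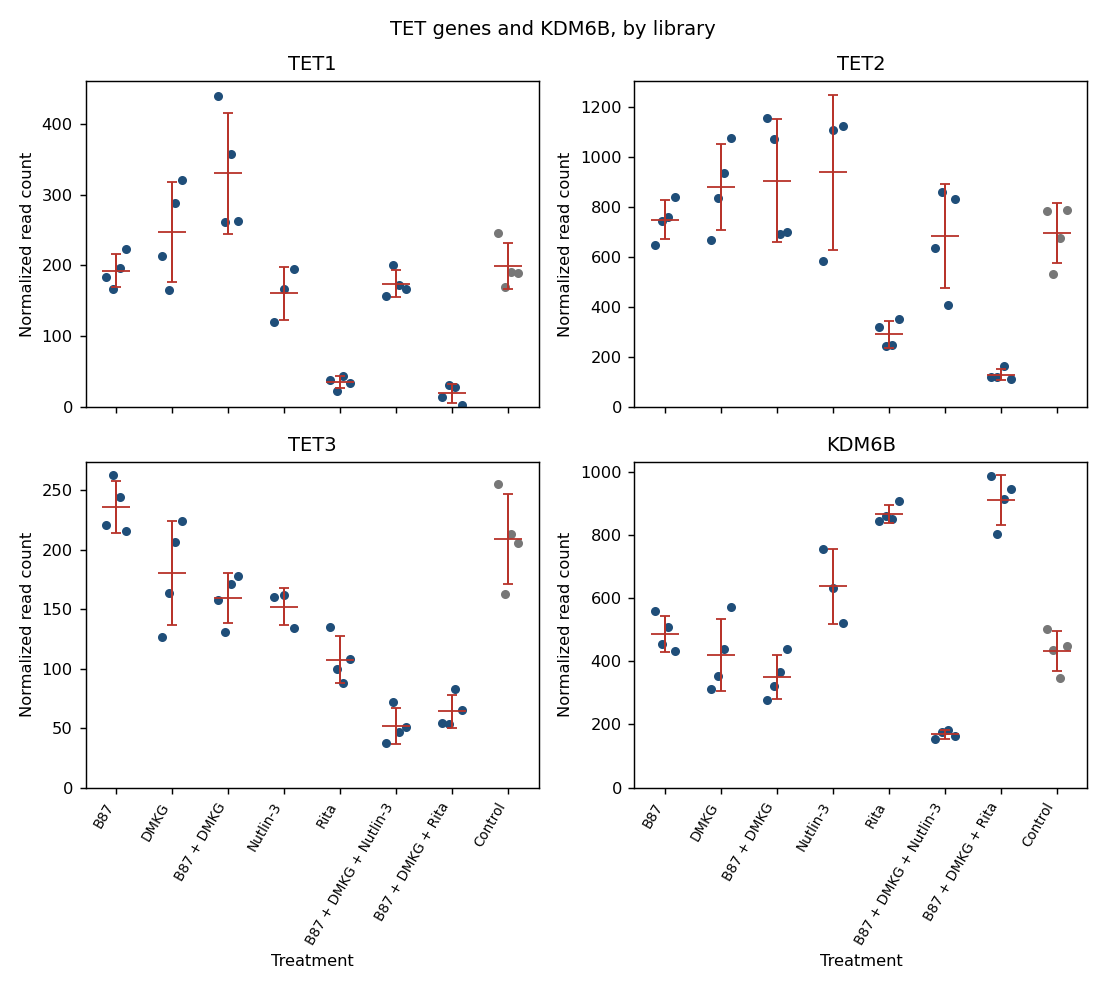
Normalized reads (vertical axes, from 0) of TET1, TET2, TET3 and KDM6B in every library (points) of the 8 treatments (horizontal axes), with group means and SD in red and Control in grey at the right. TET1 and TET2 are lowest in the Rita groups, TET3 in the triple treatments, and KDM6B lies at 152 to 182 in B87 + DMKG + Nutlin-3 but at 802 to 987 in B87 + DMKG + Rita.

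KDM4A, which demethylates histone H3 lysines 9 and 36, fell in B87 + DMKG to 347, 185, 225 and 279.7 and rose in Nutlin-3 to 1039, 851 and 829, against 549, 641, 357 and 618 in Control. Control library 3 was the lowest of its group and still above every B87 + DMKG library. The log2 fold changes were -1.06 ± 0.16 and 0.77 ± 0.17 (adjusted p = 1.4e-06 and 6.9e-04, limma). PHF8, a demethylase of mono- and dimethylated histone lysines, had 1054, 1243, 1202 and 1205 in B87 + DMKG + Nutlin-3, 1214, 1174, 1213 and 1189 in B87 + DMKG + Rita and 1384, 1415, 1397 and 1672 in Rita, against 2666, 2214, 2619.7 and 2364 in Control. All 3 groups lay below Control (-1.07 ± 0.11, -1.04 ± 0.11 and -0.75 ± 0.11, adjusted p = 7.3e-10, 1.4e-09 and 9.1e-07, limma). In DMKG, PHF8 had 1235, 1499.6, 1720.0 and 2169, with libraries 1 and 2 lower than 3 and 4 and all 4 below Control (-0.60 ± 0.11, adjusted p = 4.1e-05, limma; -0.35 from libraries 3 and 4).

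PHF2, its relative, stood at 535 ± 22.7 in B87 + DMKG + Nutlin-3 and 1252 ± 34.9 in Control (SD, n = 4 each), with no overlap (-1.22 ± 0.09, adjusted p = 1.4e-12, limma). KDM5A and KDM5B, demethylases of histone H3 lysine 4, fell in Rita (-0.78 ± 0.13 and -0.76 ± 0.10) and in B87 + DMKG + Rita (-1.13 ± 0.13 and -1.03 ± 0.10, adjusted p = 1.6e-08 and 1.5e-10, limma). KDM8 had 21.9, 21.7, 24.3 and 35.2 in B87 + DMKG + Rita, against 80.1, 68.2, 59.7 and 90.8 in Control, with no overlap (-1.51 ± 0.24, adjusted p = 2.2e-06, limma). KDM7A, a demethylase of histone H3 lysines 9 and 27, had 82.1, 80.6, 189.9 and 267 in DMKG, against 58.7, 63.9, 44.2 and 55.8 in Control. Its call there (1.28 ± 0.38, adjusted p = 0.00716, limma) came from libraries 3 and 4 (2.01), since libraries 1 and 2 gave 0.55 (adjusted p = 0.33) and leaving out library 4 alone gave adjusted p = 0.0501.

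As a class, the 14 JmjC demethylases counted 0 higher and 8 lower in B87 + DMKG, 2 and 8 in Rita, 1 and 10 in B87 + DMKG + Nutlin-3, and 2 and 10 in B87 + DMKG + Rita. Over all rows 30.2%, 25.8%, 28.3% and 29.4% were higher and 30.8%, 26.3%, 29.7% and 30.7% lower in these comparisons. All of the 14 but KDM5C, KDM6B and KDM8 span more than 50 kb, and the part of gene span (below) in these counts was not tested. DMKG had 5 higher and 2 lower (all rows: 19.6% and 21.8%), and Nutlin-3 3 higher and 1 lower (all rows: 18.5% and 20.7%). With equal totals DMKG had 5 higher and 5 lower, and Nutlin-3 2 higher and 4 lower, so the balance of these 2 comparisons depended on the scaling. KDM2A fell in B87 + DMKG + Nutlin-3 (-0.85 ± 0.07, adjusted p = 1.4e-11, limma). KDM2B, in a row shared with a small RNA, fell in Nutlin-3 (-0.65 ± 0.09, adjusted p = 1.3e-06, limma). KDM3B, a demethylase of histone H3 lysine 9, and KDM5C, one of lysine 4, lay between -0.67 and 0.38 in every comparison with Control.

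The ALKBH genes went both ways. ALKBH2, which repairs alkylated DNA, had 1112, 1004, 894 and 825 in DMKG and 1543, 2184, 1866 and 1805 in B87 + DMKG, against 1566, 1711, 1568 and 1556 in Control. DMKG lay wholly below Control (-0.75 ± 0.10, adjusted p = 4.0e-07, limma), and B87 + DMKG was higher than DMKG by 0.95 ± 0.10 (adjusted p = 2.0e-09, limma). In Rita ALKBH2 rose to 2121, 2368, 2232 and 2447 (0.52 ± 0.10, adjusted p = 6.4e-05, limma; 0.34 with equal totals).

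ALKBH4, reported to demethylate actin, had 768, 837, 614 and 526 in DMKG, 565, 613, 747 and 768 in B87 + DMKG and 437, 546, 469.6 and 543 in B87 + DMKG + Rita, against 994, 1121, 1046 and 1024 in Control. None of the 3 overlapped Control (-0.63 ± 0.13, -0.65 ± 0.13 and -1.07 ± 0.13, adjusted p = 2.1e-04, 7.5e-05 and 2.3e-08, limma), and DMKG libraries 1 and 2 gave -0.38. ALKBH1 fell in DMKG and B87 + DMKG (-0.62 ± 0.08 and -0.69 ± 0.08, adjusted p = 3.4e-07 and 2.0e-08, limma) and stood at 736, 765, 785 and 724 with Nutlin-3 added, within the Control range (0.65 ± 0.08 against B87 + DMKG, adjusted p = 6.4e-08, limma). ALKBH6 rose in B87 + DMKG (0.66 ± 0.11), Rita (0.54 ± 0.11), B87 + DMKG + Nutlin-3 (0.77 ± 0.11) and B87 + DMKG + Rita (0.85 ± 0.11), with adjusted p = 3.1e-06, 7.7e-05, 2.6e-07 and 4.5e-08 in limma. ALKBH7, a mitochondrial member, had 1027, 873, 1177 and 889 in B87 + DMKG + Nutlin-3, against 312, 570.1, 469 and 559 in Control (1.08 ± 0.23, adjusted p = 1.8e-04, limma).

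ALKBH5, an eraser of N6-methyladenosine in RNA, was lower in B87 + DMKG than in DMKG, with a log2 difference of -0.84 ± 0.08 (adjusted p = 8.9e-11, limma), with 5067, 6024, 5606 and 5873 in B87 + DMKG, against 9492, 10611, 10182 and 10170.3 in DMKG. The groups did not overlap. In DMKG, ALKBH5 was above Control (0.52, adjusted p = 1.8e-06, limma). ALKBH3, whose row also names SEC14L1P1, was higher in B87 + DMKG + Nutlin-3 by 0.45 ± 0.08 (adjusted p = 3.4e-05, limma; 0.29 with equal totals). ALKBH8, a tRNA methyltransferase with an ALKBH domain, ranged from -0.74 in B87 + DMKG + Rita to 0.19 in B87 + DMKG + Nutlin-3.

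Of the remaining hydroxylases, TYW5, which hydroxylates wybutosine in tRNA, fell most in DMKG, where 141, 139, 95.5 and 112 normalized reads stood against 296, 279, 298 and 265 in Control. The groups did not overlap (-1.23 ± 0.14, adjusted p = 1.9e-08, limma), and TYW5 was below Control in B87 + DMKG and Nutlin-3 as well (-0.93 ± 0.14 and -0.53 ± 0.15, adjusted p = 1.1e-06 and 0.00576, limma). JMJD6, a lysyl hydroxylase of splicing factors, had 1957, 1929, 1918 and 1952 in B87 + DMKG + Rita and 2260.1, 2304, 2377 and 2261 in Rita, against 3531, 3626, 3816 and 3459 in Control. Both lay below Control (-0.90 ± 0.07 and -0.65 ± 0.07, adjusted p = 9.9e-12 and 1.3e-08, limma), and Nutlin-3 lay above it (4812, 4764 and 4215, 0.35 ± 0.08, adjusted p = 8.0e-04, limma; 0.22 with equal totals). Its call in B87 + DMKG (0.17 ± 0.07, adjusted p = 0.0486, limma) was lost in 12 of its alternatives (adjusted p = 0.0522 to 0.118), equal totals and edgeR among them, and was 0.26 after quantile normalization.

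OGFOD1, which hydroxylates the ribosomal protein RPS23, fell in DMKG to 4574, 4393, 3997 and 3584, against 6530.4, 6353, 6009 and 6204 in Control, with no overlap (-0.61 ± 0.08, adjusted p = 3.3e-07, limma). PHYH, the phytanoyl-CoA hydroxylase of peroxisomes, rose in Rita and in B87 + DMKG + Rita (0.55 ± 0.10 and 0.55 ± 0.10, adjusted p = 2.0e-05 and 1.3e-05, limma; 0.30 in the triple treatment with equal totals). PLOD3, a lysyl hydroxylase with glycosyltransferase activity, rose in B87 + DMKG + Rita (0.59 ± 0.08, adjusted p = 1.1e-07, limma; 0.34 with equal totals and 0.37 after quantile normalization). P4HTM, a transmembrane prolyl hydroxylase that can act on HIF, split in Nutlin-3 like EGLN2 (1459.8, 922 and 877). That call (-0.45 ± 0.14, adjusted p = 0.00943, limma) was lost without Nutlin-3 library 2 (adjusted p = 0.0789) or 3 (adjusted p = 0.11) and was -0.69 without library 1. OGFOD2, in a row shared with ARL6IP4, was between -0.40 and 0.17 against Control, and OGFOD3 between 0.00 and 0.45.

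Added to B87 + DMKG, both p53 activators were accompanied by higher HIF-inducible members, and Rita by lower TET genes. Nutlin-3 called 15 higher and 11 lower against B87 + DMKG (all rows: 58.9%, with 26.5% higher and 32.3% lower), or 10 and 15 with equal totals. Rita called 16 higher and 15 lower (all rows: 67.3%, with 33.1% higher and 34.2% lower), or 9 and 17 with equal totals. Of the 8 HIF-inducible members, 6 rose with Nutlin-3 and 7 with Rita, and none fell; with equal totals 5 rose and 1 fell with Nutlin-3, and 5 rose and 0 fell with Rita. Of the 3 TET genes, 3 fell with Rita and 2, TET3 and TET1, with Nutlin-3. TET1 with Nutlin-3 (-0.89 ± 0.37, adjusted p = 0.0384, limma) lost its call after quantile normalization (-0.65, adjusted p = 0.131), with no filter (adjusted p = 0.0763) and without B87 + DMKG library 1 or 3 or triple library 1, 3 or 4 (adjusted p = 0.0632 to 0.114), and TET2 was not called (-0.43 ± 0.22, adjusted p = 0.0962, limma). Of the 14 JmjC demethylases 7 fell and 1 rose with Nutlin-3 and 8 fell and 3 rose with Rita. All 6 collagen and membrane hydroxylases rose with Rita, but 4 of them after quantile normalization and 3 with equal totals, among them P4HTM (0.63 ± 0.13, adjusted p = 7.6e-05, limma; 0.39 with equal totals). These differences use the B87 + DMKG libraries, whose members varied by a median CV of 14.0%, beside 7.2% in Control.

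The effect of each p53 activator in B87 + DMKG was then compared with its effect without. For Nutlin-3, 13 members were above and 13 below (all rows: 56.9%, with 26.4% higher and 30.6% lower), led by EGLN3 at 1.74 ± 0.25 and PLOD2 at 1.58 ± 0.19 above, and KDM6B at -1.59 ± 0.22 and TET3 at -1.19 ± 0.29 below (adjusted p = 6.9e-07, 3.9e-08, 6.2e-07 and 7.7e-04, limma). For Rita, 8 were above and 8 below (all rows: 48.6%, with 24.2% higher and 24.4% lower), led by PLOD2 at 1.51 ± 0.18, EGLN1 at 1.497 ± 0.18 and KDM4B at 1.17 ± 0.18 above (adjusted p = 7.7e-08, 6.0e-08 and 5.2e-06, limma), with TET1 and TET2 below as given earlier.

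Where members rose or fell in Rita went along with gene length. Gene span is the length between the start and end coordinates that the table gives. Across the 41 members the Spearman correlation of span with the log2 fold change in Rita was -0.62, beside -0.51 over the 13843 rows that name a symbol. The points share their libraries, so this is a description. Of 18 members over 50 kb, 1 was higher and 13 were lower (median -0.63); of 23 members up to 50 kb, 11 were higher and 6 lower (median 0.29). Over all rows the medians were -0.39 and 0.20. TET1, TET2, TET3 and all JmjC demethylases but KDM5C, KDM6B and KDM8 span more than 50 kb. In B87 + DMKG + Rita the correlation was -0.47 (all rows: -0.43) and in Nutlin-3 it was -0.003 (all rows: -0.015). In B87 + DMKG + Nutlin-3 it was -0.50, beside -0.22 over all rows. The part of span in the members' changes was not tested.

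**Figure D5:**
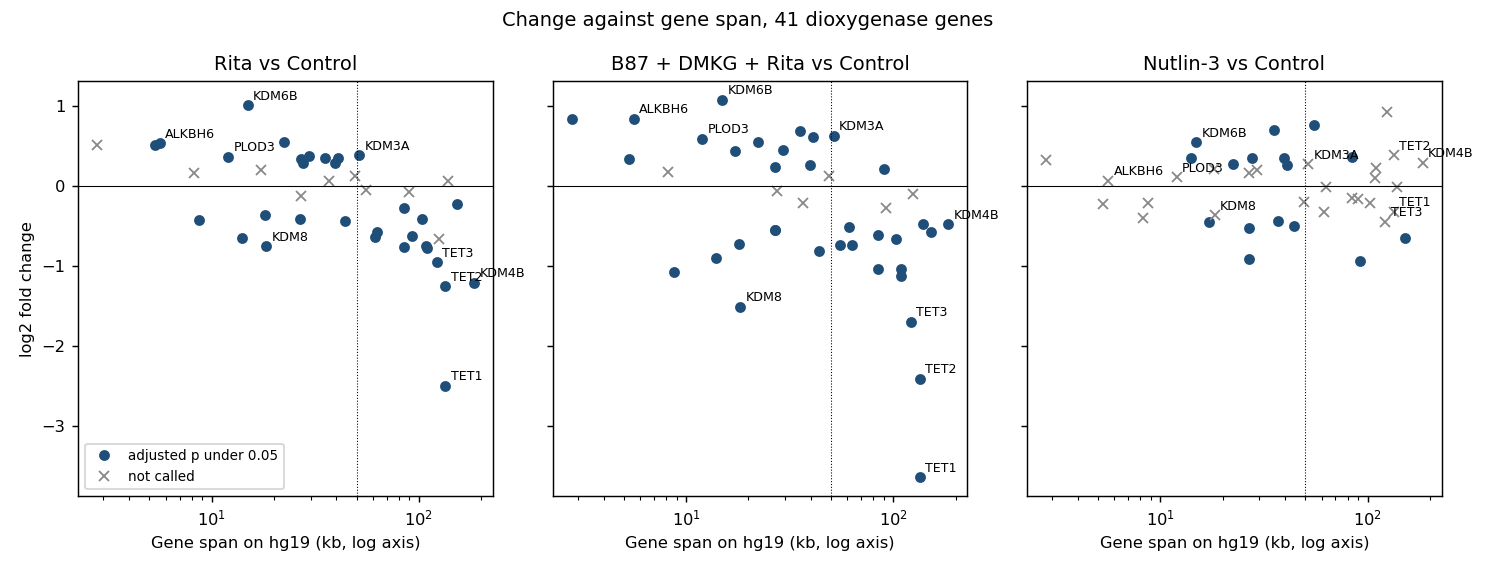
Log2 fold change (vertical axis) against gene span on hg19 (horizontal axis, log scale in kb) for the 41 members in 3 comparisons with Control; circles passed the test, crosses did not, and the dotted line marks 50 kb. Long members lie mostly below 0 in the Rita panels, and no slope shows in Nutlin-3.

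Of 23 further 2-oxoglutarate dioxygenases outside the 41, 22 were tested, and 6 rose and 5 fell in DMKG, 7 rose and 8 fell in B87 + DMKG, and 5 rose and 6 fell in Rita. Over all rows 19.6% rose and 21.8% fell in DMKG, 30.2% and 30.8% in B87 + DMKG, and 25.8% and 26.3% in Rita, so these counts lay near the background. KDM6A, the X-linked relative of KDM6B, fell in B87 + DMKG and Rita (-1.23 ± 0.10 and -1.94 ± 0.10, adjusted p = 1.8e-11 and 1.2e-15, limma), while KDM6B rose in Rita. KDM4D fell in DMKG (-2.14 ± 0.34, adjusted p = 8.3e-06, limma). FTO, the other N6-methyladenosine eraser, fell in Rita (-1.09 ± 0.09, adjusted p = 1.9e-11, limma).

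Of 13 HIF pathway partners 12 were tested, and 1 rose and 2 fell in DMKG (all rows: 19.6% and 21.8%). VHL, which recognizes the hydroxylated prolines, fell in DMKG (-0.90 ± 0.07, adjusted p = 3.5e-12, limma), and CITED2, a HIF-induced inhibitor of HIF, rose (1.68 ± 0.11, adjusted p = 1.0e-13, limma). In B87 + DMKG 2 partners rose and 4 fell (all rows: 30.2% and 30.8%). EPAS1, which encodes HIF-2α, fell there (-1.19 ± 0.08, adjusted p = 1.0e-13, limma). HIF1A, which encodes another HIF α subunit, rose (0.41 ± 0.12, adjusted p = 0.00466, limma). All 22 enzymes that make or use 2-oxoglutarate, succinate or fumarate were tested. In DMKG 9 rose and 2 fell, but 3 rose and 4 fell with equal totals, and in B87 + DMKG 5 rose and 12 fell, beside 19.6% and 21.8%, and 30.2% and 30.8%, over all rows. Against B87 + DMKG, 17 rose and 1 fell with Nutlin-3, and 18 rose and 2 fell with Rita, or 11 and 4, and 10 and 2, with equal totals. Over all rows 26.5% rose and 32.3% fell with Nutlin-3, and 33.1% and 34.2% with Rita. PSAT1, whose reaction yields 2-oxoglutarate, fell in B87 + DMKG (-1.90 ± 0.10, adjusted p = 1.1e-15, limma), whereas OGDH, which consumes it, rose (0.64 ± 0.05, adjusted p = 1.7e-11, limma). Of the 3 hydroxylase partners, P4HB, the β subunit of collagen prolyl 4-hydroxylase, rose in DMKG and in B87 + DMKG (0.36 ± 0.06 and 0.45 ± 0.06, adjusted p = 1.7e-05 and 1.7e-07, limma). CRTAP rose in DMKG but fell in B87 + DMKG (0.27 ± 0.06 and -0.26 ± 0.06, adjusted p = 2.4e-04 and 2.0e-04, limma). PPIB was not called in DMKG and rose in B87 + DMKG (0.22 ± 0.08, adjusted p = 0.0134, limma).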

How the data were processed

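Poly(A) RNA of 31 samples was sequenced from TruSeq stranded mRNA libraries, per the labels. The authors normalized read counts per gene with DESeq2, and the deposited signal values are these; STAR 2.4.0, FastQC, Picard and SAMtools were also used, per the submitters' processing notes. Whether counting used the strand is not stated in any source used. Those notes name mm10, but the file header names hg19 and the genes are human. All values above 0 were whole multiples of a step per library (100.0% within 0.1 step), so whole reads were recovered. Of the recovered counts above 0 and below 1000, 55.8% to 59.2% were even, by library. The reason for this excess was not tested.

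Rows with a mean of at least 10 were tested with limma 3.58.1 in R 4.3.3 (linear model, contrasts, moderated statistics with a mean trend) on log2(value + 1). All 31 samples entered 1 fit by group, with 23 residual and 7.14 prior degrees of freedom, and Benjamini-Hochberg adjustment over 16259 rows. Alternatives were pseudocounts of 0.5 and 5, other filters on the mean, equal totals for all libraries, quantile normalization, a fit of the compared groups alone, a replicate block, DESeq2 1.42.0 and edgeR 4.0.16 on the whole reads, leaving out single libraries, and a minimum change of 1 (absolute log2). Leaving out DMKG libraries 1 and 2 or 3 and 4, and using only rows that name 1 gene, were added after seeing the data. The scripts' fits were tested on simulated data.

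Members and lists were chosen with earlier results of these data known. Named members were, per comparison, up to 8 called members with the largest rise and 8 with the largest fall (6 in contrasts of more than 2 groups), and 12 always named: EGLN1, EGLN2, EGLN3, HIF1AN, TET1, TET2, TET3, KDM3A, KDM6B, JMJD6, P4HA1 and PLOD2. Up to 3 called genes of each further list, and HIF1A as well, were named, chosen with their values known. The fit across genes uses 4 samples per group (Nutlin-3: 3).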

Additional observations from a re-analysis of the deposited data

Results flagged for a closer look

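In 11 of 287 sets of 4 libraries (1 member in 1 group), the highest or lowest library lay far from the others by Dixon's test, and chance flags about 1 in 20 such sets. In Rita, EGLN1 had 1065 in library 4 (next 779), PHF8 1672 in library 4 (next 1415), OGFOD1 9001 in library 4 (next 7410) and KDM5A 1038 in library 1 (next 926). In B87, library 4 was highest for EGLN3 (436) and KDM2A (2296) and lowest for KDM4B (509). In B87 + DMKG + Rita, TET2 had 164 in library 3 and KDM4B 401 in library 1. PHF2 had 501 in B87 + DMKG + Nutlin-3 library 1, and ALKBH2 had 1711 in Control library 2.

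The combination of B87 and DMKG differed from the sum of its parts (limma, log2 scale) by -3.14 for KDM3A, -2.94 for EGLN1, -2.44 for EGLN3, -1.97 for PLOD2, -1.62 for KDM7A, -1.48 for KDM4B and -1.33 for P4HA1. For KDM7A the value without DMKG libraries 3 and 4 was -0.89 (adjusted p = 0.173, limma).

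The Nutlin-3 effect with minus without B87 + DMKG was 1.74 for EGLN3, 1.58 for PLOD2, 1.16 for ALKBH1, 0.83 for KDM3A, 0.68 for EGLN1, 0.58 for P4HA1 and 0.54 for EGLN2. It was -1.59 for KDM6B, -1.19 for TET3, -1.09 for PHF8, -0.81 for TET2, -0.65 for HIF1AN and -0.63 for JMJD6. TET2 lost this call in 8 alternatives and EGLN2 without Nutlin-3 library 2 or 3.

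The Rita effect with minus without B87 + DMKG was 1.51 for PLOD2, 1.497 for EGLN1, 1.17 for KDM4B, 0.85 for P4HA1, 0.78 for EGLN3 and 0.52 for KDM3A. It was -1.86 for TET1, -1.51 for TET2 and -0.41 for JMJD6.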

How the results depend on the processing

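Shares over all rows are not set beside the counts in this section, so these do not tell the members from other rows. Of 308 counts of called members under the alternatives, 295 stayed within 1.5 times of the reported count. The other 13 came from requiring a change of at least 1 (absolute log2), which left 6 members in DMKG, 4 in B87 + DMKG, 0 in Nutlin-3 (16 without that limit, 17 by edgeR, 20 by DESeq2 and 28 at an unadjusted p under 0.05 in limma), 4 in Rita, 6 in B87 + DMKG + Nutlin-3 and 9 in B87 + DMKG + Rita against Control, 7 in B87 + DMKG against DMKG, 4 against B87, 5 and 6 for Nutlin-3 and Rita added to B87 + DMKG, 8 beyond the sum, and 7 and 5 for the Nutlin-3 and Rita effects with minus without B87 + DMKG. Leaving out 1 library gave 0 to 0 calls in B87, 22 to 25 in DMKG, 21 to 24 in B87 + DMKG, 14 to 21 in Nutlin-3, 30 to 32 in Rita, 24 to 25 and 35 to 36 in the triple treatments with Nutlin-3 and Rita, 18 to 21 against DMKG, 25 to 28 against B87, 22 to 27 and 30 to 32 for Nutlin-3 and Rita added, 17 to 20 beyond the sum, and 22 to 26 and 12 to 17 for the 2 effect differences. For single members, 4999 of 5154 values kept direction and call, 88 lost the call, 66 gained it and 1 reversed, P4HA1 in B87 + DMKG + Rita against Control with equal totals (-0.038; the cause was not tested). Same-numbered samples did not pair: 6 of 105 pairs correlated over 0.1 (median -0.0033), and 5 of 31 libraries correlated best with their own number. The replicate block lost the calls of JMJD6 in B87 + DMKG (adjusted p = 0.0522) and PHYH in Nutlin-3 (adjusted p = 0.0509, limma), and gave 22 calls in B87 + DMKG and 15 in Nutlin-3. Counting error weighs most on members with the lowest group means, among them TET1 in the Rita groups, TET3 in the triple treatments, KDM7A and KDM8.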
